A study of Homo sapiens with 12 samples.

Results

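DUSP1, DUSP4, DUSP5, DUSP6, DUSP10, SPRY1, SPRY2, SPRY4, SPRED1 and SPRED2 encode inhibitors that act back on mitogen-activated protein (MAP) kinase signalling. They were taken by symbol from the PRO-seq gene count table, in which each of the 10 symbols matched 1 Ensembl gene ID, out of 59410 genes in all. PRO-seq sequences RNA made by engaged polymerases in a nuclear run-on, so a count reads ongoing transcription and not stored message. The cells were T47D, an established human breast cancer line with estrogen receptor, and the 12 libraries formed 6 groups of 2. After 3 days in complete medium, cells received vehicle (0.1% DMSO), fulvestrant, raloxifene or tamoxifen (100 nM each) for 1 h. Cells deprived of hormones for 3 days received vehicle (0.1% DMSO) or estradiol (1 nM) for 1 h. All groups share the same single cell line, so the values describe that line. Medium was read from each library's description and the design text, since the treatment protocol given with every library names complete medium only. The labels number the libraries of each group 3 and 4 without saying whether they are independent cultures. P-values therefore reflect the spread between these libraries alone, which may be technical.

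Growth factor receptors signal through RAS, RAF and MEK to the MAP kinase ERK, and ERK switches on genes whose products shut the pathway off again. Dual-specificity phosphatases (DUSPs) remove the activating phosphates from MAP kinases: DUSP1, DUSP4 and DUSP5 do so in the nucleus, DUSP6 in the cytoplasm and with a preference for ERK, and DUSP10 with a preference for p38 and JNK. Sprouty (SPRY) and SPRED proteins act further upstream, between the receptor and RAF, and SPRED1 brings the RAS inactivator neurofibromin to the membrane. In luminal breast cancer cells, growth factor and estrogen receptor signalling are known to influence each other.

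Library totals ran from 3682311 to 7856803 counts, and all 10 genes passed the filter on low counts. The luminal identity of the line was checked on 9 markers, among them KRT8, EPCAM, GATA3 and ESR1. All 9 passed the filter, with a summed level between 4020 and 5920 CPM (the usual CPM scale, counts relative to the library total, with TMM factors) per library. The 5 basal or mesenchymal markers summed to between 9.59 and 15.1 CPM, and the 6 stromal, endothelial or blood markers to between 18.9 and 29.8 CPM, of which COL1A1 alone averaged 19.3 CPM. Of the 5 basal or mesenchymal markers 3 also passed the filter, as did 3 of the 6 others. TP63 averaged 6.41 CPM (up to 64 counts in a library), ZEB1 4.82 CPM (up to 45) and VIM 1.4 CPM (up to 18). KRT5 never exceeded 1 count in a library, KRT14 2 counts and PTPRC 3 counts. The luminal sum averaged 4020 CPM in starved vehicle libraries, 5690 CPM with estradiol and 5880 CPM in complete vehicle libraries, and its part in the results was not tested. Its members went different ways. In the same order PGR stood at 730, 1920 and 1600 CPM and ESR1 at 1020, 1380 and 1980 CPM, whereas CDH1 stood at 358, 362 and 357 CPM and FOXA1 at 174, 133 and 167 CPM. Each library averages over its cells, so a change in all of them and a change in some cannot be told apart.

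The promoters of 3 of the genes are shown because these genes moved in different ways with estradiol: DUSP1 and DUSP6 rose and SPRY1 fell. Each sequence is the 250 bases before the RefSeq start (GRCh38.p14), 5′ to 3′ on the strand of the gene, at chr5:172771196-172771445 (minus strand), chr12:89352502-89352751 (minus strand) and chr4:123396545-123396794 (plus strand, the outer of 2 listed starts). Capitals mark the cyclic AMP response element and the TATA box.
DUSP1: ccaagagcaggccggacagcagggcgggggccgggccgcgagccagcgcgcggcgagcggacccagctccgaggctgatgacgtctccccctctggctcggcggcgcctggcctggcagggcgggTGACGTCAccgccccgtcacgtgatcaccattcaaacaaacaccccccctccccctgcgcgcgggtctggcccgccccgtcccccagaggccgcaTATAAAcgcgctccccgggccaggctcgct
DUSP6: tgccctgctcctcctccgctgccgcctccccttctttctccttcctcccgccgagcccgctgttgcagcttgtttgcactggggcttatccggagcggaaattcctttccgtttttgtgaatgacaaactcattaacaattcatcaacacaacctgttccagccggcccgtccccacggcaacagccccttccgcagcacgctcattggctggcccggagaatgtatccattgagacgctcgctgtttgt
SPRY1: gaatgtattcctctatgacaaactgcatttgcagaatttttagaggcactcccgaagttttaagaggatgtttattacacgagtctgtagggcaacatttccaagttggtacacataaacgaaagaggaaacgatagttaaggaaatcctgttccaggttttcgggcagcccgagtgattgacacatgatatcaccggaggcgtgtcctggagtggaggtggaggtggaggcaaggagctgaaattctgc
The motifs searched, on both strands, were the estrogen response element, its core GGTCA alone, the cyclic AMP response element TGACGTCA, the AP-1 site TGANTCA, the ETS site CCGGAAG, the GC box GGGCGG, the TATA box TATAAA and the CArG box of serum response factor. The full element holds GGTCA on both strands, 3 bases apart, so each full match is also a match of the core. RefSeq windows were listed for 8 of the 10 genes. Where a gene had several, only the window nearest its outer start was searched. The SPRY4 window, at chr5:142324248-142324497 (minus strand), lay inside the gene span, which ends at 142325021. In the DUSP1 window the cyclic AMP response element lay 125 to 118 bases before the start and the TATA box 30 to 25 bases before it. These letters occurred in 1.65% and 10.7% of all 35116 listed windows of this length. The same window held 4 GC boxes, a motif of 42.6% of all windows. No window of the 8 held an AP-1 site, an ETS site or a CArG box, which 6.57%, 8.52% and 1.16% of all windows hold. The DUSP6 and SPRY1 windows held none of the motifs. No window of the 8 held a full estrogen response element, which 0.0399% of all windows hold, and among the 8 the core occurred only in the SPRY4 window, with 2 matches, against 32.6% of all windows. Guanine and cytosine made up 74.4% of the DUSP1 window, 57.2% of the DUSP6 window and 45.6% of the SPRY1 window, against a median of 58.0% over all windows. Absence of a motif says only that these letters are not in this stretch.

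Levels of different genes were compared per kilobase of RefSeq gene span, since long genes collect more counts. In complete medium with vehicle, DUSP1 was the most densely transcribed of the 10, at 7.22 ± 0.041 CPM per kb (SD, n = 2). DUSP4 followed at 4.04 ± 0.42 CPM per kb, DUSP6 at 2.92 ± 0.22 CPM per kb and SPRY1 at 1.79 ± 0.18 CPM per kb. The long SPRED genes were low on this scale, SPRED2 at 0.790 ± 0.047 CPM per kb and SPRED1 at 0.290 ± 0.043 CPM per kb, and SPRY4 was lowest at 0.143 ± 0.033 CPM per kb. The order was different after starvation. In starved vehicle libraries SPRY1 stood second, at 5.07 ± 0.12 CPM per kb, and DUSP4 was at 1.03 ± 0.068 CPM per kb, beside DUSP5 at 1.05 ± 0.0059 CPM per kb. The sources used here do not give which part of a gene was counted, so a density over the whole span is a description only.

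**Figure D1:**
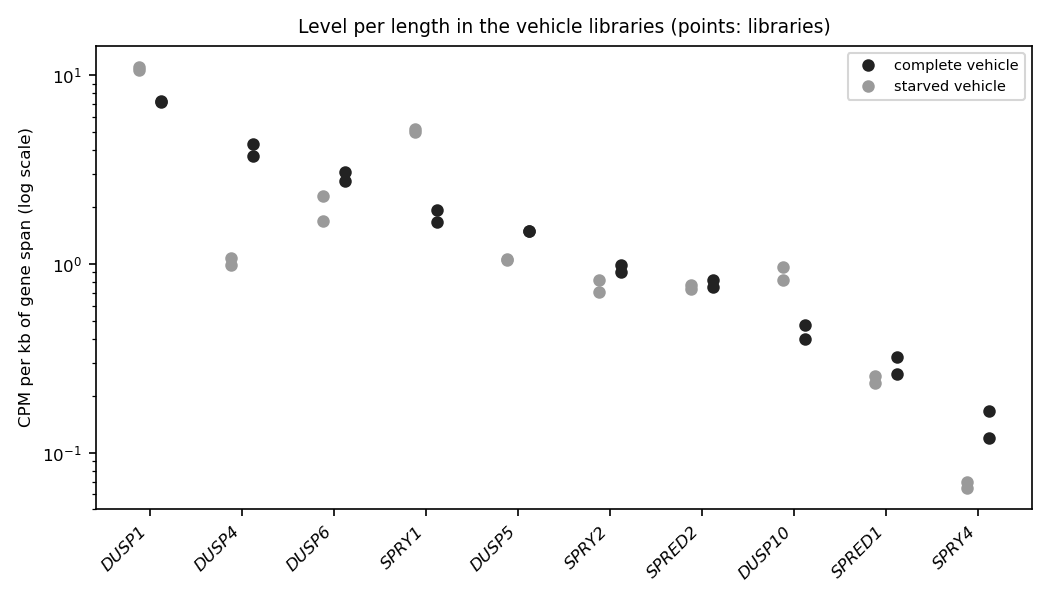
CPM per kb of RefSeq gene span (vertical axis, log scale) of the 10 genes in the 2 vehicle groups, one point per library. DUSP1 is highest in both media, SPRY1 and DUSP10 lie higher in starved than in complete medium, and DUSP4 lies lower.

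Estradiol was compared with vehicle in starved cells, to see which of these genes respond to the hormone within 1 h. The response was mixed. The phosphatase genes DUSP1, DUSP4 and DUSP6 rose, SPRY1 and SPRED1 fell, and the other 5 did not pass the test (edgeR's quasi-likelihood test, p adjusted by Benjamini-Hochberg over 23375 genes). Thus 5 of 10 were called, against 8.77% of all genes tested. With the filter set at a mean of at least 50 counts, 2166 of 14629 genes were called. SPRY2 and SPRY4, with at most 39 and 21 counts in a library, do not reach that filter, so this share is not matched to all 10 genes. The 10 genes were chosen with earlier results of these data known, so these shares are a description. The 3 that rose compare with 5.04% of all genes and the 2 that fell with 3.73%. The median log2 fold change of the 10 was 0.37, against -0.01 over all genes. Of all calls 57.4% were upward, and 45.8% without TMM scaling, under which the split among the 10 genes was unchanged at 3 and 2.

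DUSP6, the ERK phosphatase gene (ENSG00000139318, chromosome 12, 89347235 to 89352501, GRCh38.p14, as for the other genes), stood at 12 and 8.87 CPM in starved vehicle libraries 3 and 4 and at 15.5 and 20.7 CPM with estradiol. Both estradiol libraries were above both vehicle libraries, and the 2 libraries within each group differed. The log2 fold change was 0.78 ± 0.171 (fit standard error; edgeR's quasi-likelihood test, adjusted p = 0.0045). It was 0.58 without starved vehicle library 4 (adjusted p = 0.12) and 0.56 without estradiol library 4 (adjusted p = 0.13). DUSP6 shares part of its span with the read-through gene POC1B-DUSP6 in RefSeq, which had no row of its own here.

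DUSP4, a nuclear phosphatase gene for ERK and JNK (ENSG00000120875, chromosome 8, 29333064 to 29350684), was at 19.0 and 17.3 CPM with vehicle and at 31.1 and 25.4 CPM with estradiol, with no overlap. It rose by 0.64 ± 0.135 (edgeR's quasi-likelihood test, adjusted p = 0.0029). The call was lost without starved vehicle library 4 (0.58, adjusted p = 0.055) and without estradiol library 3 (0.49, adjusted p = 0.12). DUSP1, an early-response phosphatase gene acting on p38, JNK and ERK (ENSG00000120129, chromosome 5, 172768096 to 172771195), was at 33.1 and 34.4 CPM with vehicle and at 40.2 and 54.3 CPM with estradiol. The vehicle libraries lay close together and the estradiol libraries did not. The log2 fold change was 0.47 ± 0.124 (edgeR's quasi-likelihood test, adjusted p = 0.017). Without estradiol library 4 it was 0.25 (adjusted p = 0.41). The call was also lost without starved vehicle library 3 (0.45, adjusted p = 0.15), without starved vehicle library 4 (0.50, adjusted p = 0.092) and with DESeq2 (0.49, adjusted p = 0.12).

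SPRY1, an inhibitor of receptor tyrosine kinase signalling (ENSG00000164056, chromosome 4, 123396795 to 123403760), fell from 36.0 and 34.7 CPM with vehicle to 19.8 CPM in each estradiol library. The groups were far apart and the libraries within each were close. The log2 fold change was -0.84 ± 0.117 (edgeR's quasi-likelihood test, adjusted p = 3.4e-05), a 1.79-fold lower level. It passed under all 11 alternatives, with values from -0.87 to -0.81. SPRED1 (ENSG00000166068, chromosome 15, 38252836 to 38357249) fell from 24.5 and 26.7 CPM to 19.3 and 17.2 CPM. The groups did not overlap, and the log2 fold change was -0.48 ± 0.140 (edgeR's quasi-likelihood test, adjusted p = 0.036). This call was lost with DESeq2 (-0.47, adjusted p = 0.19) and whichever of the 4 libraries was left out, with values from -0.57 to -0.40 and adjusted p from 0.090 to 0.26.

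Among the rest, SPRED2, the other SPRED gene, lay just short of the threshold, at 96.4 and 92.7 CPM with vehicle and 120 and 105 CPM with estradiol (log2 fold change 0.26 ± 0.0816; edgeR's quasi-likelihood test, adjusted p = 0.056). It passed under 5 of 11 alternatives, among them without estradiol library 4 (0.35, adjusted p = 0.030), and over all 11 ran from 0.15 to 0.35 with adjusted p from 0.0021 to 0.52. SPRY2 and SPRY4, both ERK-inducible Sprouty genes, had positive values that did not pass, 0.71 ± 0.259 and 1.09 ± 0.515. Their counts were small, in the starved libraries between 27 and 39 for SPRY2 and between 7 and 16 for SPRY4. Over all 12 libraries they ran from 17 to 39 for SPRY2 and from 6 to 21 for SPRY4. Their 95% intervals were wide, from 0.17 to 1.26 for SPRY2 and from 0.01 to 2.16 for SPRY4. DUSP5, a nuclear ERK phosphatase gene, was at 14.3 and 14.4 CPM with vehicle and 13.3 and 15.8 CPM with estradiol (0.01 ± 0.140, 95% interval from -0.28 to 0.31). DUSP10 was at 39.2 and 33.6 CPM with vehicle and 26.9 and 36.9 CPM with estradiol, and these groups overlapped (-0.20 ± 0.131, 95% interval from -0.48 to 0.07).

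**Figure D2:**
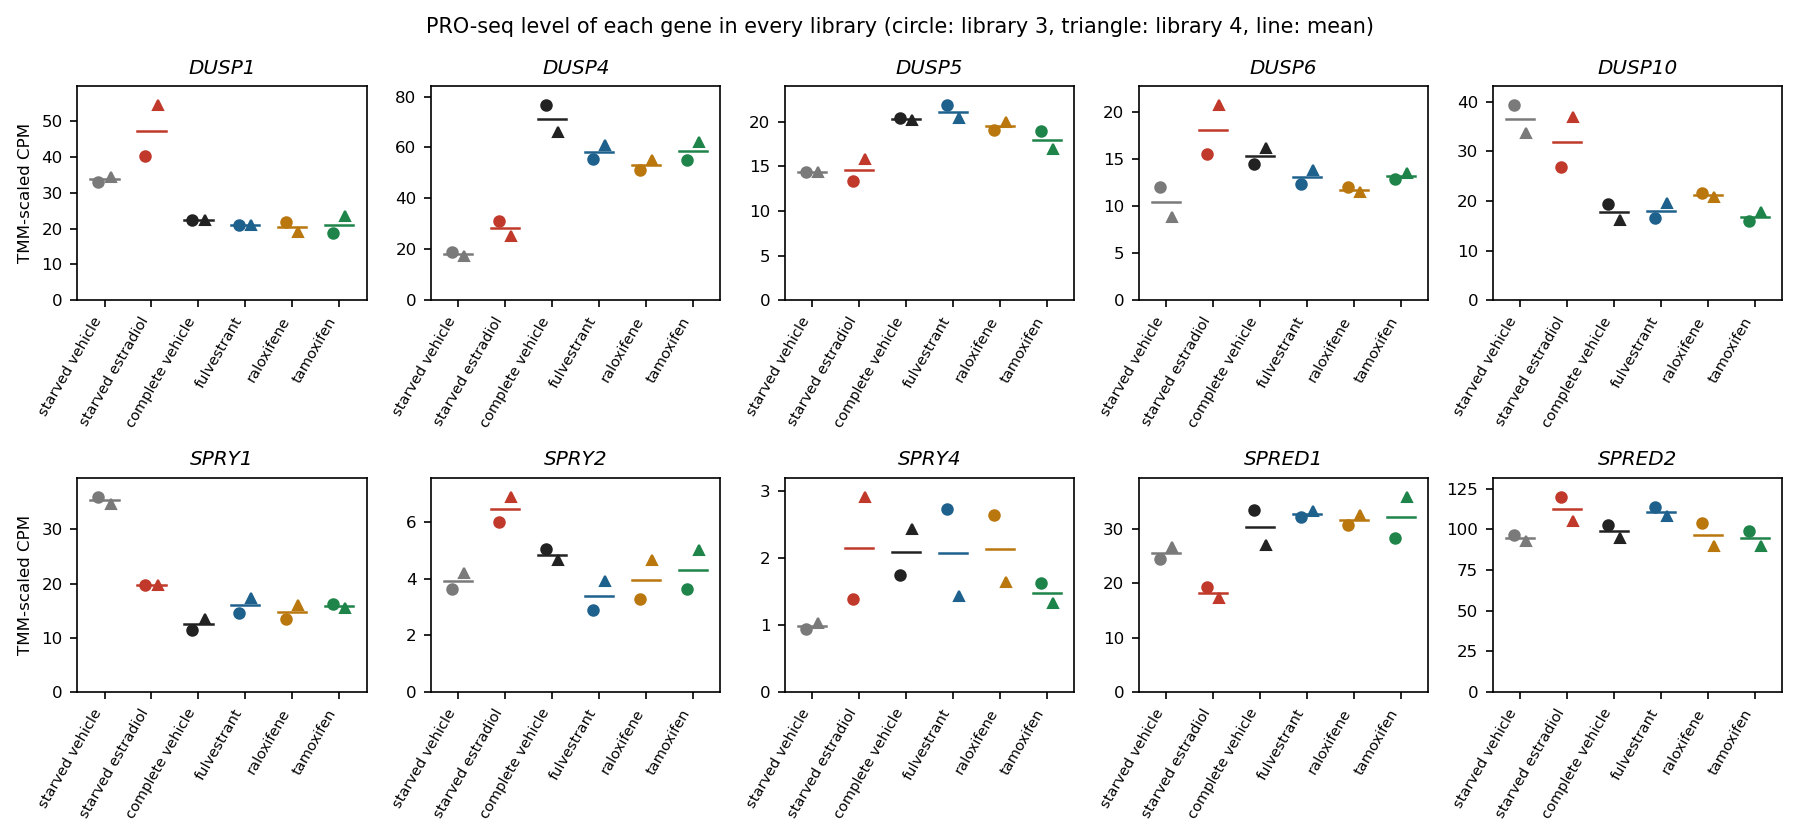
TMM-scaled CPM (vertical axes, each from 0) of the 10 genes in every library of the 6 groups, with circles for library 3, triangles for library 4 and a line at the mean. DUSP4 is lowest in starved vehicle libraries (19.0 and 17.3 CPM) and highest in complete vehicle libraries (76.5 and 66.0 CPM), and SPRY1 runs the other way.

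The effect of the medium was read from the vehicle libraries, starved against complete. After 3 days of starvation DUSP1, DUSP10 and SPRY1 were higher, DUSP4, DUSP5 and DUSP6 were lower, and the remaining 4 did not pass. The 6 of 10 called compare with 18.8% of all genes tested, and the 3 in each direction with 9.1% higher and 9.67% lower. With the filter set at a mean of at least 50 counts, which SPRY2 and SPRY4 do not reach, 4268 of 14629 genes were called. The median log2 fold change of the 10 was -0.29, against 0.01 over all genes. This comparison and the estradiol comparison share the starved vehicle libraries, so opposite values in them are not independent of each other.

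DUSP4 had the largest change of the 10 genes in any comparison. Its 2 complete vehicle libraries were at 76.5 and 66.0 CPM and its starved ones at 19.0 and 17.3 CPM, a 3.94-fold lower level (log2 fold change -1.98 ± 0.117; edgeR's quasi-likelihood test, adjusted p = 1.3e-10). SPRY1 changed most in the other direction, from 11.5 and 13.4 CPM in complete to 36.0 and 34.7 CPM in starved medium (1.51 ± 0.130, adjusted p = 2.9e-08, edgeR). DUSP10, the p38 and JNK phosphatase gene (ENSG00000143507, chromosome 1, 221701424 to 221742089), went from 19.3 and 16.2 CPM to 39.2 and 33.6 CPM, 2.04-fold higher (1.03 ± 0.147, adjusted p = 2.9e-05, edgeR). For each of these genes the groups were far apart, and the 3 values passed under all 11 alternatives.

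Changes of the other phosphatase genes were smaller. DUSP1 was at 22.3 and 22.5 CPM in complete and 33.1 and 34.4 CPM in starved medium (0.59 ± 0.142, adjusted p = 0.0049, edgeR), and without complete vehicle library 3 it was 0.60 (adjusted p = 0.055). DUSP5 (ENSG00000138166, chromosome 10, 110497907 to 110511533) went from 20.4 and 20.2 CPM to 14.3 and 14.4 CPM (-0.50 ± 0.132, adjusted p = 0.0096, edgeR). The DUSP5 libraries of each group were nearly equal, yet the call was lost with DESeq2 (adjusted p = 0.14) and whichever of the 4 libraries was left out (adjusted p from 0.054 to 0.089). DUSP5-DT, a non-coding gene beginning within 5 kb of DUSP5, averaged 19.6 CPM and had a value of -0.04 that did not pass (adjusted p = 0.86, edgeR). DUSP6 went from 14.5 and 16.2 CPM to 12 and 8.87 CPM (-0.55 ± 0.178, adjusted p = 0.036, edgeR). Its call was lost without starved vehicle library 4 (-0.33, adjusted p = 0.36), without complete vehicle library 3 (-0.61, adjusted p = 0.10), without complete vehicle library 4 (-0.46, adjusted p = 0.22), with no filter on low counts and with DESeq2.

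The Sprouty and SPRED genes other than SPRY1 did not pass between the media. SPRED1 was at 33.5 and 27.1 CPM in complete and 24.5 and 26.7 CPM in starved medium (-0.26 ± 0.129, 95% interval from -0.53 to 0.01). SPRED2 (ENSG00000198369, chromosome 2, 65307175 to 65432599) was at 103 and 95 CPM in complete and 96.4 and 92.7 CPM in starved medium, where the groups overlapped (-0.07 ± 0.0835, 95% interval from -0.25 to 0.10). SPRY2 (ENSG00000136158, chromosome 13, 80335976 to 80341126) had a value of -0.32 ± 0.276 and SPRY4 (ENSG00000187678, chromosome 5, 142310430 to 142325021) one of -1.05 ± 0.523.

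**Figure D3:**
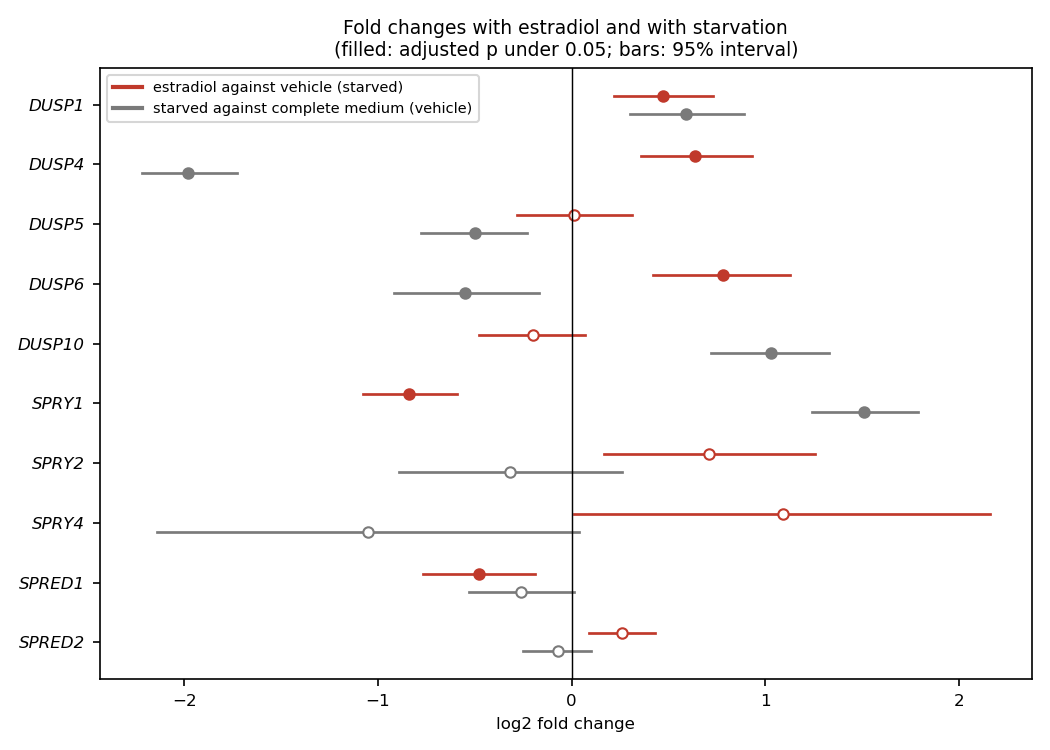
Log2 fold changes (horizontal axis) of the 10 genes with estradiol in starved cells and with starvation in vehicle libraries. Bars are 95% intervals of the fit and filled points have an adjusted p under 0.05. DUSP4 and SPRY1 lie on opposite sides of 0 in the 2 comparisons, whereas DUSP1 is above 0 in both.

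Estradiol-treated starved cells were set against complete vehicle libraries, to place the level reached after 1 h. The genes fell into different positions. DUSP1 stood above its level in complete medium, at 40.2 and 54.3 against 22.3 and 22.5 CPM (1.07 ± 0.139, adjusted p = 1.1e-05, edgeR). DUSP4 remained far below, at 31.1 and 25.4 against 76.5 and 66.0 CPM (-1.33 ± 0.112, adjusted p = 3.7e-08, edgeR). SPRY1 was still above, at 19.8 CPM in each library against 11.5 and 13.4 CPM (0.68 ± 0.147, adjusted p = 0.0024, edgeR), and without complete vehicle library 3 it was 0.58 (adjusted p = 0.064). SPRED1 was below, at 19.3 and 17.2 against 33.5 and 27.1 CPM (-0.74 ± 0.141, adjusted p = 0.00082, edgeR), and without complete vehicle library 3 it was -0.55 (adjusted p = 0.054). For DUSP6 the values were 15.5 and 20.7 against 14.5 and 16.2 CPM, which overlapped (0.23 ± 0.167, 95% interval from -0.12 to 0.58). DUSP10 was above (0.82 ± 0.154) and DUSP5 below (-0.49 ± 0.137). The call of DUSP5 was lost under 5 of the 11 alternatives, with adjusted p up to 0.24. The 6 of 10 called, 3 above and 3 below, compare with 16.2% of all genes tested, 8.09% above and 8.11% below. With the filter set at a mean of at least 50 counts, which SPRY2 and SPRY4 do not reach, 3753 of 14629 genes were called. Both groups here also serve in the comparisons above.

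Fulvestrant, an antagonist that also brings about loss of the receptor protein, and the selective modulators raloxifene and tamoxifen were each compared with vehicle in complete medium. None of the 10 genes passed with any of the 3 drugs, by edgeR's quasi-likelihood test, nor with DESeq2. Over all genes 1.16% were called with fulvestrant (0.107% higher, 1.05% lower), 0.569% with raloxifene (0.0898% higher, 0.479% lower) and 0.0513% with tamoxifen (0.00428% higher, 0.0471% lower). At an unadjusted p under 0.05 there were 2 of the 10 genes with fulvestrant, 1 with raloxifene and 2 with tamoxifen, against 7.5%, 9.78% and 6.55% of all genes. The 3 drugs share their vehicle libraries, so like values under them are not independent.

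DUSP4 came nearest to a call. Its vehicle libraries were at 76.5 and 66.0 CPM, and every drug library was lower, at 55.6 and 61.0 CPM with fulvestrant, 51.0 and 55.2 CPM with raloxifene and 55.0 and 62.1 CPM with tamoxifen. The log2 fold changes were -0.30 ± 0.100, -0.44 ± 0.103 and -0.30 ± 0.0986 (edgeR's quasi-likelihood test, adjusted p = 0.31, 0.055 and 0.61). The raloxifene value passed under 3 of 11 alternatives and did not pass under the others. Those that passed included no filter on low counts (-0.46, adjusted p = 0.00094) and leaving out raloxifene library 4, the shallowest of the 12 (-0.49). Over all 11 alternatives the raloxifene value ran from -0.55 to -0.33. SPRY1 had values of 0.36 ± 0.153, 0.22 ± 0.158 and 0.37 ± 0.150 with the 3 drugs, and its 6 drug libraries, from 13.5 to 17.3 CPM, were all above the 11.5 and 13.4 CPM of vehicle. None of these passed (adjusted p = 0.56, 0.72 and 0.72, edgeR). DUSP6 was at 14.5 and 16.2 CPM with vehicle and between 11.5 and 13.8 CPM in the drug libraries, with values of -0.23 ± 0.177, -0.38 ± 0.183 and -0.21 ± 0.173 that did not pass.

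For the remaining genes no drug value passed. DUSP1 had -0.09 ± 0.159 with fulvestrant, -0.10 ± 0.161 with raloxifene and -0.10 ± 0.156 with tamoxifen, and the widest of its 95% intervals ran from -0.44 to 0.23. SPRED2 had 0.16 ± 0.0838, -0.02 ± 0.0858 and -0.07 ± 0.0841. SPRED1 lay between 0.04 and 0.10, DUSP5 between -0.18 and 0.06 and DUSP10 between -0.09 and 0.25. SPRY2 and SPRY4 had the widest 95% intervals. For SPRY2 they ran from -1.14 to 0.09 with fulvestrant, from -0.99 to 0.23 with raloxifene and from -0.77 to 0.38 with tamoxifen. For SPRY4 they ran from -0.94 to 1.02, from -0.82 to 1.12 and from -1.48 to 0.56.

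The drugs were also set against one another in 3 pairs, all at 100 nM and 1 h. Fulvestrant is a steroid carrying a long side chain, and raloxifene and tamoxifen are non-steroidal. None of the 10 genes passed in any pair (edgeR's quasi-likelihood test), against 0.103% of all genes for raloxifene against fulvestrant, 0.462% for tamoxifen against fulvestrant (0.453% higher, 0.00856% lower) and 0.00428% for tamoxifen against raloxifene. DESeq2 called none of them either. At an unadjusted p under 0.05 there were 1, 1 and 0 of the 10 genes, against 4.9%, 5.08% and 4.54% of all genes. The gene was SPRED2 in both of the first 2 pairs. SPRED2 was at 114 and 108 CPM with fulvestrant, 104 and 89.7 CPM with raloxifene and 99.2 and 90.1 CPM with tamoxifen. For DUSP4, 95% intervals of the difference ran from -0.37 to 0.07 for raloxifene against fulvestrant, from -0.21 to 0.21 for tamoxifen against fulvestrant and from -0.07 to 0.37 for tamoxifen against raloxifene. Without a call, these intervals bound the differences and do not show that the drugs act alike.

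**Figure D4:**
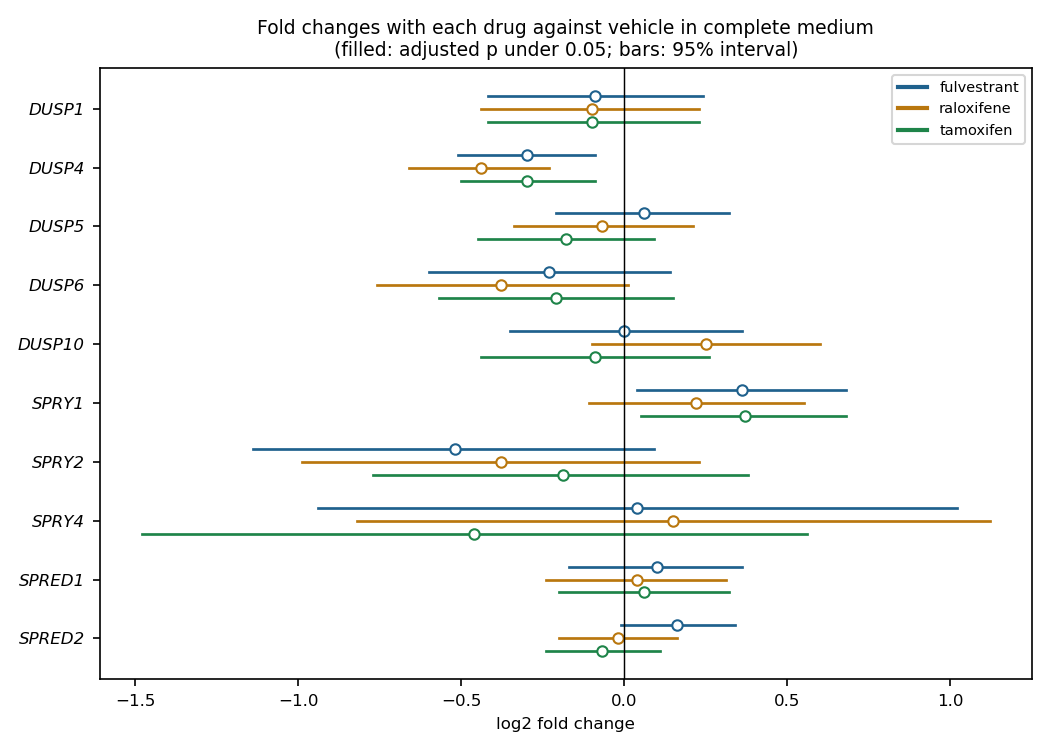
Log2 fold changes (horizontal axis) of the 10 genes with fulvestrant, raloxifene and tamoxifen against vehicle in complete medium, with 95% intervals of the fit. Open points did not pass the test, and all 30 points are open; DUSP4 lies below 0 with each drug, from -0.44 to -0.30.

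Across the 6 groups the widest range was that of DUSP4, whose highest group mean was 3.93 times its lowest, followed by SPRY1 at 2.84 times, and the narrowest was that of SPRED2 at 1.19 times. From lowest to highest, DUSP4 ran from starved vehicle (18.1 ± 1.2 CPM) through estradiol (28.3 ± 4.0 CPM), raloxifene (53.1 ± 3.0 CPM), fulvestrant (58.3 ± 3.8 CPM) and tamoxifen (58.5 ± 5.0 CPM) to complete vehicle (71.3 ± 7.4 CPM). Among neighbours in that order only fulvestrant and tamoxifen overlapped. Raloxifene (51.0 and 55.2 CPM) and tamoxifen (55.0 and 62.1 CPM), which are not neighbours in it, overlapped as well. SPRY1 ran from complete vehicle (12.5 ± 1.3 CPM) through raloxifene, tamoxifen and fulvestrant (14.8 ± 1.9, 15.9 ± 0.56 and 16.0 ± 1.9 CPM, which overlapped) to estradiol (19.8 CPM) and starved vehicle (35.3 ± 0.86 CPM). DUSP1 had its 4 complete-medium groups between 20.4 ± 2.1 and 22.4 ± 0.13 CPM, all overlapping with their neighbours, below starved vehicle (33.8 ± 0.93 CPM) and estradiol (47.2 ± 10 CPM). SPRED1 was lowest with estradiol (18.3 ± 1.5 CPM) and between 30.3 ± 4.5 and 32.8 ± 0.69 CPM in the 4 complete-medium groups.

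Over the 12 libraries, log2 CPM of DUSP4 and SPRY1 had a Pearson r of -0.93, DUSP4 and DUSP10 of -0.92, and DUSP1 and SPRED1 of -0.89. Positive values were found for DUSP1 with DUSP10 (0.84), DUSP4 with DUSP5 (0.84) and DUSP10 with SPRY1 (0.81). These describe the 6 groups more than the 12 libraries, since libraries of a group and a medium share their treatment. Of 14621 other genes with a mean of at least 50 counts, the 3 with a pattern most like DUSP4 were PRPF3 (r = 0.990), TRIP13 (r = 0.987) and GRIK4 (r = 0.984). For SPRY1 they were TCAF1 (r = 0.978), PHF20 (r = 0.974) and LIMA1 (r = 0.971), for DUSP1 SPOPL (r = 0.983), AFDN (r = 0.978) and RAB6A (r = 0.976), and for DUSP6, with lower values, MPC1 (r = 0.934), LYRM1 (r = 0.926) and ENSG00000264860 (r = 0.925). For SPRED1 they were NR2F1-AS1 (r = 0.965), MBNL1 and BCHE (r = 0.959 each). For DUSP10 they were ENSG00000283321 and DISC1FP1 (r = 0.971 each) and NBEA (r = 0.964), and for DUSP5 GMNN (r = 0.961), EEF1AKMT1 (r = 0.959) and PLK4 (r = 0.956).

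The rest of the pathway was followed in 5 lists, whose counts stand against 8.77% of all genes called with estradiol and 18.8% with starvation (9.1% higher, 9.67% lower). Of 11 tested relatives in the DUSP and Sprouty families, 0 passed with estradiol (edgeR's quasi-likelihood test; 0 also at an unadjusted p under 0.05), with a median log2 fold change of 0.00, and 3 were higher in starved medium: DUSP3 (0.35 ± 0.0716), DUSP8 (1.03 ± 0.220) and DUSP22 (0.33 ± 0.105). The call of DUSP22 was lost without starved vehicle library 3 or 4, without complete vehicle library 3 and with DESeq2, and that of DUSP8 without starved vehicle library 3 (0.79, adjusted p = 0.061). Of 21 genes of the RAS to ERK cascade, RASGRP1, which encodes an activator of RAS, rose with estradiol by 2.15 ± 0.152, and 20 did not pass, a called share of 4.76%. In starved medium 4 of the 21 were higher, among them MKNK2 (0.68 ± 0.121), and RASGRP1 was lower (-0.69 ± 0.184). This call of RASGRP1 was lost without starved vehicle library 4 (-0.56, adjusted p = 0.12) and without complete vehicle library 4 (-0.55, adjusted p = 0.13). Among 13 p38 and JNK kinase genes MAP2K6, a kinase that activates p38, fell with estradiol (-0.84 ± 0.166) and MAPK9, which encodes a JNK, rose (0.34 ± 0.0789), whereas in starved medium 3 were higher and 2 lower, the lower ones being MAP2K6 and MAPK9. MAPK9 did not pass with estradiol without starved vehicle library 4 (0.26, adjusted p = 0.16) or estradiol library 3 (0.30, adjusted p = 0.097).

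Receptor tyrosine kinases and their adaptors changed in both directions with estradiol, 4 of 21 higher and 5 lower. The rises included RET (2.74 ± 0.186) and IGF1R (0.56 ± 0.044), and the falls ERBB2 (-0.51 ± 0.0754) and ERBB3 (-0.39 ± 0.0645). In starved medium 9 of the 21 were higher, for example EGFR (1.03 ± 0.0796). The 4 lower ones included RET (-2.27 ± 0.2), IGF1R (-0.75 ± 0.0439) and ERBB4 (-0.84 ± 0.060). Of 19 tested genes of ERK-responsive transcription 7 rose with estradiol and 1 fell, EPHA4. Those that rose were MYC (1.54 ± 0.0957), PHLDA1 (1.17 ± 0.0784), FOS (1.12 ± 0.24), IER3 (0.76 ± 0.162), CCND1 (0.67 ± 0.115), CIC (0.4 ± 0.0912) and ELK4 (0.28 ± 0.0842). The list also holds transcription factor genes such as ELK1 and SRF, and its counts are not a measure of ERK activity, which was not tested. With estradiol 11 of the 19 values were positive and 8 negative. The negative ones included EGR1 (-0.35 ± 0.276), ETV4 (-0.13 ± 0.542) and ETV5 (-0.36 ± 0.441), which did not pass. In starved medium 2 of the 19 were higher and 5 lower, including PHLDA1 (-1.01 ± 0.080). The medians of these 2 lists with estradiol were 0.01 and 0.17.

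**Figure D5:**
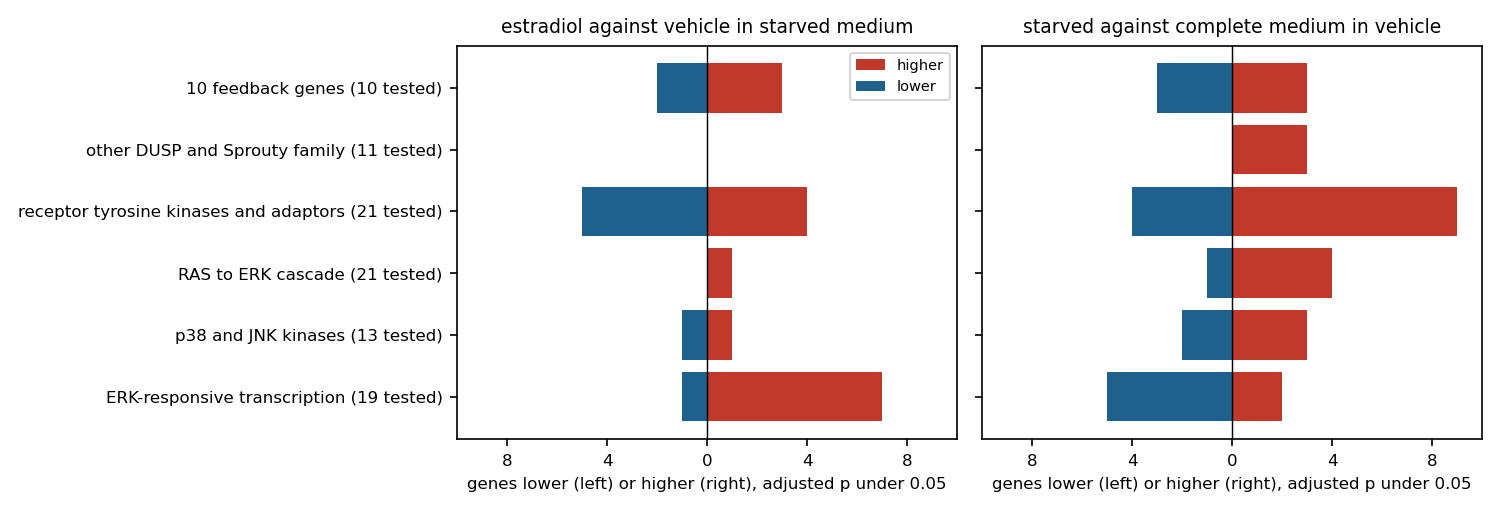
Number of genes lower (left of 0) and higher (right of 0) at an adjusted p under 0.05 with estradiol and with starvation, for the 10 feedback genes and the 5 pathway lists. With estradiol the ERK-responsive list has 7 higher and 1 lower and the cascade list 1 higher.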

How the data were processed

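The values are raw counts that the authors deposited per Ensembl gene ID for 12 PRO-seq libraries. Per the submitters' processing notes, the build was hg38 and the tools included SAMtools 1.9, Bowtie2 2.4.4 and cutadapt 1.8.1. The sources used here do not give the counting tool, its annotation or its strand setting, so antisense and overlapping reads cannot be told apart. Of 60605 gene IDs, 142 had no symbol and kept their ID, and where IDs shared a symbol the one with the highest total was used. The analysis ran in edgeR 4.0.16 under R 4.3.3. Its filterByExpr left 23375 genes, TMM scaled the libraries, and a quasi-likelihood model of the 6 groups was fitted to all 12 libraries. Benjamini-Hochberg adjustment covered every tested gene in each of 9 comparisons, with a threshold of 0.05. Errors of fold changes are standard errors of the fit, and levels are means ± SD of 2 libraries. The procedure was run on counts simulated with the spread estimated here, so that run cannot check the spread itself. Changes were put only into genes with a mean of at least 50 counts, so recovery at low counts, as in SPRY2 and SPRY4, was not tested. Log2 CPM for correlations used a prior count of 2. Alternatives were other scaling, other filters, DESeq2 1.42.0, only the compared groups, a replicate block and leaving out each library. Coordinates, spans and promoters came from RefSeq (GRCh38.p14). The 10 genes and the lists were chosen with earlier results of these data known. Pathway genes were named from those past the threshold, up to 4 per list and comparison by adjusted p, and not all of these are given. With estradiol FOS, IER3, CIC, ELK4, EGR1, ETV4 and ETV5 were named outside this rule. Library pairs differed by more than sampling noise (chi-square per gene from 1.20 to 2.34).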

Additional observations from a re-analysis of the deposited data

How the results depend on the processing

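No value of the 10 genes that was called, or had an unadjusted p under 0.05, changed direction under any alternative, and of the 17 called values 7 passed under every one. With estradiol 5 of the 10 genes were called, and 3 with DESeq2. Leaving out 1 library gave 1 to 3 with estradiol, 3 to 5 for starvation against 6, and 3 to 6 for estradiol-treated against complete vehicle cells, where a lone library was assumed to vary like the other groups. With raloxifene, 0 genes became 1 (DUSP4) with no filter on low counts and with the replicate block, and 0 to 1 when a library was left out. The numbers 3 and 4 give only 2 pairs per comparison, and the labels do not say what they share. Deviations of same-numbered libraries correlated between groups with r from 0.10 to 0.42. The replicate block gave 6 calls with estradiol, SPRED2 being added (0.26, adjusted p = 0.0021), 6 with starvation and 7 for estradiol-treated against complete vehicle cells. Over all genes the calls with estradiol were 2050, with DESeq2 1090, with the block 3004, and 1170 to 1321 with a library left out. For starvation they were 4387, with DESeq2 2313, and 2558 to 2872 with a library left out, and for estradiol-treated against complete vehicle cells 3788, 2060, and 2217 to 2616. Calls with fulvestrant (270) ran from 143 to 498, with raloxifene (133) from 28 to 490 and with tamoxifen (12) from 0 to 172. For raloxifene against fulvestrant (24) they ran from 14 to 167, for tamoxifen against fulvestrant (108) from 48 to 242 and for tamoxifen against raloxifene (1) from 0 to 159. The cause was not tested. SPRY2 and SPRY4, with 17 to 39 and 6 to 21 counts per library, passed with estradiol under none of the 10 and 8 alternatives that gave them a value.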

Other observations

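The drugs called pathway genes outside the 10. With fulvestrant MYC (-1.13 ± 0.098), CCND1 (-0.59 ± 0.111) and PHLDA1 (-0.56 ± 0.0787) fell and EPHA4 rose (0.37 ± 0.0694) among 19 tested genes of ERK-responsive transcription, and IGF1R (-0.40 ± 0.0438) and the adaptor gene GAB2 (-0.35 ± 0.0648) fell among 21 receptor and adaptor genes (edgeR's quasi-likelihood test). With raloxifene MYC (-0.68 ± 0.0951), IGF1R (-0.19 ± 0.0437) and EPHA4 (0.38 ± 0.070) were called, and with tamoxifen 0 genes of the 5 lists. With fulvestrant, CCND1 was lost without complete vehicle library 3 or fulvestrant library 4, GAB2 without complete vehicle library 4 or fulvestrant library 3, and EPHA4 whichever of the 4 libraries was left out. With raloxifene, MYC was lost without complete vehicle library 3, EPHA4 without either vehicle library or raloxifene library 4, and IGF1R whichever was left out. None of the RAS to ERK cascade, the p38 and JNK kinases or the DUSP and Sprouty relatives was called with any of the 3 drugs. These list counts stand against 1.16% of all genes called with fulvestrant, 0.569% with raloxifene and 0.0513% with tamoxifen. PHLDA1 was higher with tamoxifen than with fulvestrant (0.46 ± 0.0777; 0.39 without fulvestrant library 4, adjusted p = 0.13), as were MYC (0.83 ± 0.0986) and IGF1R (0.33 ± 0.0436).

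SPRY4-AS1, a non-coding gene beginning within 5 kb of SPRY4, averaged 6.91 CPM, and its values with estradiol (0.25) and starvation (-0.36) did not pass (adjusted p = 0.70 and 0.41, edgeR).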
